A study of Mus musculus with 8 samples.

Results

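The genes described here are the matrix metalloproteases (Mmp), the ADAM and ADAMTS proteases and the tissue inhibitors of metalloproteases (Timp). Members were chosen by symbol alone, as every gene with a non-control probe named Mmp, Adam, Adamts or Timp and a number, and the Adamts-like genes (Adamtsl) were left out. The array holds 79 such genes on 105 probes, among 21154 genes with a named probe: 22 Mmp, 34 Adam, 19 Adamts and 4 Timp genes. Of these, 41 passed the filter on dim probes and were tested among 14131 genes. The other 38 are accounted for at the end.

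Matrix metalloproteases are zinc enzymes that cut collagens, laminins and other matrix proteins, and they also release growth factors and cytokines. Most are secreted as inactive precursors, while the membrane-type members stay on the cell surface. ADAM proteases are membrane-bound and shed the outer parts of receptors and ligands. ADAMTS proteases are secreted and cut proteoglycans or trim procollagens, and the Timp proteins bind and block many of these enzymes. In mammary tumours much of the matrix-degrading machinery is made by fibroblasts and leukocytes of the stroma, while Mmp7, or matrilysin, is known as an epithelial enzyme.

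The study used MMTV-PyMT mammary tumours, in which a viral promoter active in mammary epithelium drives the polyoma middle T oncogene, on the FVB strain. Tumour pieces grew at the orthotopic site in wild-type FVB mice, which keep their own stroma and immune cells, over 2 passages. RANK-Fc is a fusion of the outer part of the receptor RANK with an antibody Fc part, which captures RANK ligand, and it was given by intraperitoneal injection at 10 mg/kg, 3 times a week. RNA of 16 tumours was hybridised to 8 two-colour Agilent arrays, 1 tumour per colour.

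Passage 1 held 2 untreated control tumours and 3 RANK-Fc tumours. Passage 2 held 2 control tumours, untreated in both passages, and 3 tumours labelled adjuvant, given RANK-Fc in passage 2 only (current-only). It also held 3 tumours labelled neoadjuvant, whose label code is read here as RANK-Fc in passage 1 and none in passage 2 (prior-only), and 3 given RANK-Fc in both (prior-and-current). Host age is not given in the labels, nor is the passage 1 tumour from which each passage 2 tumour grew, so tumours of 1 passage 2 group may share a parent tumour. Replicate numbers only name tumours within a group, and p-values measure the spread between these tumours.

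Levels are log2 intensities after normalisation, and a difference of 1 is a doubling. They were compared across tumours for the same probe only. Between 47.5% and 56.5% of spots were well above background per array, and no spot was saturated. All 10 luminal epithelial markers tested, including Krt8, Krt18 and Epcam, were well above background in all 16 tumours, with a mean level between 12.51 and 12.78. All arrays lay on one slide scanned together. Whether tumours of both passages were collected and their RNA prepared together is not given in the labels.

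Stromal content differed between tumours, which matters for genes made by stroma. The mean level of 12 fibroblast markers, such as Col1a1, Dcn and Pdgfra, lay between 10.99 and 11.55 in the 5 passage 1 tumours. It lay between 10.02 and 11.54 in 10 of the 11 passage 2 tumours, with a median of 10.46. Current-only replicate 3 stood apart at 12.31, and its neutrophil list level (12.77) was the highest as well, with 11.19 to 12.14 in the other tumours. All 12 fibroblast markers were well above background in every tumour. In pieces of whole tumour, fewer cells of a type and less RNA per cell cannot be told apart.

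**Figure D1:**
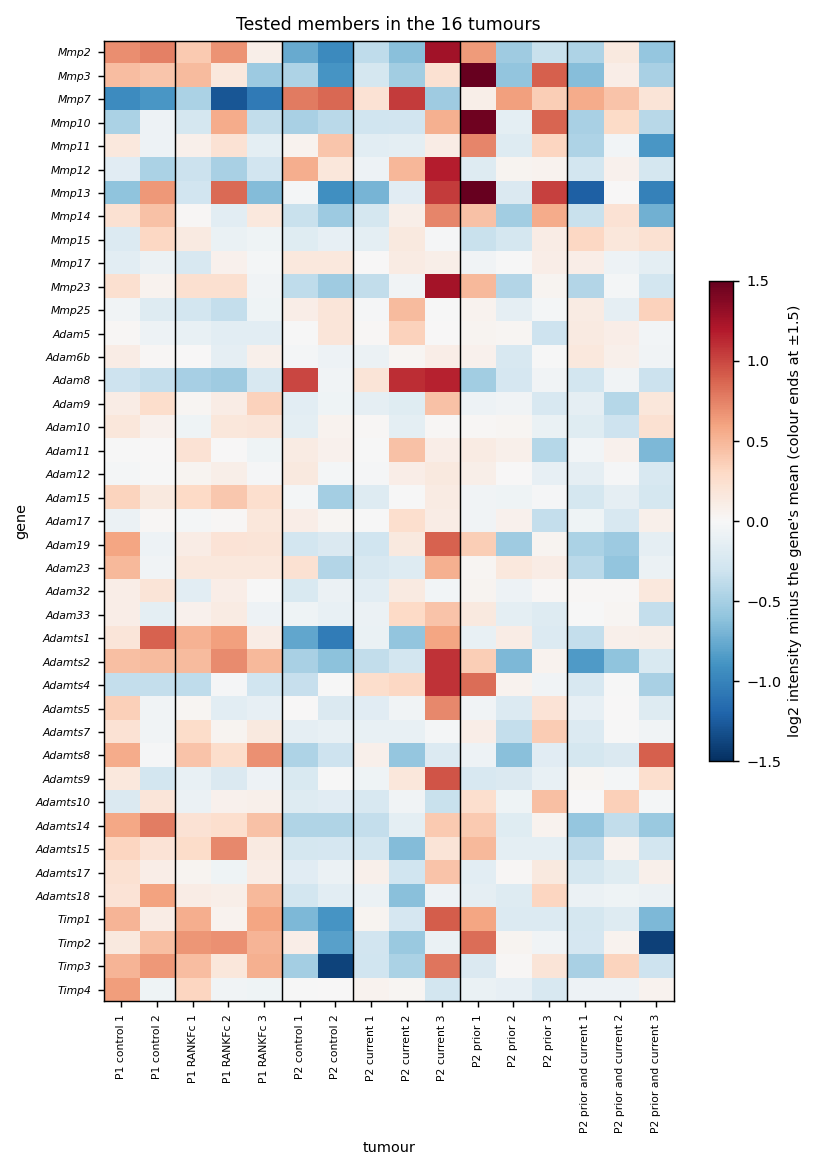
P1 and P2 stand for passages 1 and 2. Level of each tested member (rows) in each tumour (columns, grouped by the 6 groups), as log2 intensity minus that gene's own mean over the 16 tumours, with red above and blue below. P2 current (current-only) replicate 3 is red for Mmp2, Mmp23, Adamts2 and Adamts4, and P2 prior (prior-only) replicates 1 and 3 are red for Mmp3, Mmp10 and Mmp13.

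Passage was the comparison in which most members were called. The difference between the passages was taken as the mean of the change among controls and the change among tumours first given RANK-Fc in the passage sampled, and a gene is called here at an adjusted p under 0.05 by limma with Benjamini-Hochberg adjustment over all 14131 genes. Of the 41 members, 8 were called, 3 higher and 5 lower in passage 2, against 12% of all genes tested (4.27% higher and 7.73% lower). Mmp7, Adam8 and Mmp12 rose, while Adamts1, Adamts14, Adam15, Timp3 and Adamts18 fell. The median difference was -0.17 over the members and 0 over all genes, and 14 of 41 members had a difference above 0, against 49.7% of all genes.

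The number called moved with single tumours. It was 13 when current-only replicate 3 was left out. It was 5 when either passage 1 control or passage 2 control replicate 1 was left out, and 4 when passage 2 control replicate 2 was. The 5 genes added without current-only replicate 3 were Mmp2, Mmp23, Adamts2, Adamts15 and Timp1, all lower in passage 2. The share of all genes called was then 11.6%. Mmp7, Adamts1 and Adamts14 were called in all 16 fits that each left out 1 tumour. Of the 12 fibroblast markers, 2 had a difference above 0 and the median difference was -0.75, although none was called. Of 7 adipocyte markers, 1 was above 0, with a median of -0.87. All 9 T and NK cell, 4 squamous and 4 skeletal muscle markers were above 0 (medians 0.28, 0.41 and 0.35). None of these was called either. Of 9 macrophage markers, 5 were above 0, with a median of 0.12 and none called. Of 5 neutrophil markers, 1 was above 0 and was called, with a median of -0.08 over the list. The part of these lists in the members' differences was not tested.

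**Figure D2:**
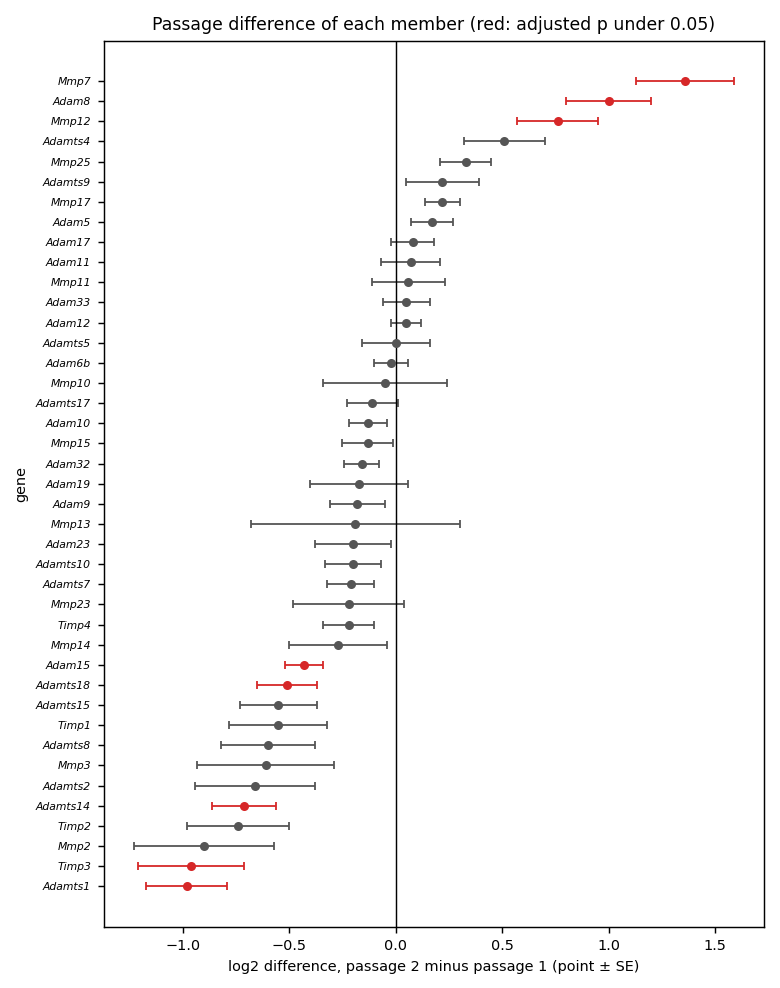
Passage 2 minus passage 1 log2 difference of each of the 41 tested members, with points for the fitted difference and bars for its standard error; red points have an adjusted p under 0.05. Mmp7 lies furthest to the right at 1.36 and Adamts1 furthest to the left at -0.98.

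Matrilysin (Mmp7) cuts proteoglycans and sheds surface proteins, and it had the largest rise of any member. It read 7.40 and 7.47 in the passage 1 controls and 7.87, 7.06 and 7.29 in the passage 1 RANK-Fc tumours. In passage 2 it read 9.13 and 9.21 in the controls, 8.56, 9.40 and 7.81 in the current-only tumours, 8.44, 8.96 and 8.71 in the prior-only tumours, and 8.90, 8.77 and 8.54 in the prior-and-current tumours. The passages overlapped only through current-only replicate 3, which at 7.81 lay below the highest passage 1 tumour. The fitted difference was 1.36 ± 0.23 (SE), a 2.57-fold rise, with an adjusted p of 0.00226 by limma. Among controls alone the difference was 1.61 ± 0.34 (adjusted p = 0.0248, limma), and the call was lost without any 1 of the 4 control tumours, with adjusted p from 0.0746 to 0.34.

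Macrophage elastase (Mmp12) cuts elastin and is made mainly by macrophages, and Adam8 is an ADAM protease of leukocytes that is also found in tumour cells. Adam8 read 9.53 and 9.49 in passage 1 controls, 9.35, 9.32 and 9.61 in passage 1 RANK-Fc tumours, 10.85 and 9.79 in passage 2 controls and 10.04, 10.95 and 11 in current-only tumours. All 5 passage 2 tumours with no earlier RANK-Fc lay above all 5 passage 1 tumours. Such a gap in that direction was found for 5.65% of all genes tested and for 3 of the 41 members (7.32%), a share near that of all genes. These were Adam8, Mmp12 and Mmp25. Mmp12 passed the filter only through the passage 2 control and current-only groups, and Mmp25 only through the current-only group. The gaps of Mmp12 and Mmp25 were thus partly fixed by the filter. Adam8 rose by 1.0 ± 0.20 between passages (adjusted p = 0.00702, limma), and without passage 2 control replicate 1 the difference was 0.74 with an adjusted p of 0.0503.

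Mmp12 read 6.61 and 6.31 in passage 1 controls, 6.46, 6.30 and 6.50 in passage 1 RANK-Fc tumours, 7.33 and 6.95 in passage 2 controls and 6.71, 7.28 and 7.96 in current-only tumours. It was well above background in 1 of 2 and 1 of 3 passage 1 tumours and in all 5 of these passage 2 tumours, so its low levels lie near the detection limit. It passed the filter only through the passage 2 control and current-only groups, where it was high, so the difference was partly fixed by the filter. It rose by 0.76 ± 0.19 (adjusted p = 0.0203, limma), and over the alternatives by 0.58 to 2.21, the highest with the scanner software's processed signals. The call was lost without passage 1 control replicate 1, passage 1 control replicate 2, passage 2 control replicate 1 or passage 2 control replicate 2, with adjusted p of 0.0536, 0.0811, 0.0927 and 0.054. A second Mmp12 probe was not above background in any tumour.

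Mmp12 and Adam8 followed each other over the tumours. Pearson's r was 0.91 and Spearman's rho 0.86 over 16 tumours (permutation p = 1e-05 and 8e-05, the first the smallest that the permutations can give). The adjusted values were 0.00051 and 0.0017 over 153 pairs of members. The correlation was 0.84 without the 2 tumours farthest from the median and 0.89 within the 11 passage 2 tumours. Mmp12 passed the filter only through the passage 2 control and current-only groups, where both genes had their highest group means. The likeness of Mmp12 and Adam8 was thus partly fixed by the filter. Their probes share the same libraries, and all correlations here describe these tumours only.

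Adam8 was the only member called for earlier RANK-Fc, in the mean of the comparisons without and with current RANK-Fc, against 0.368% of all genes tested, or 0.092% counting those lower. It read 9.32, 9.59 and 9.80 in prior-only tumours and 9.58, 9.80 and 9.52 in prior-and-current tumours, close to the passage 1 values. Those 6 tumours overlapped with passage 2 control replicate 2 (9.79). The fitted difference was -1.0 ± 0.19 (adjusted p = 0.0478, limma). The call was lost in 20 of 29 alternative fits, among them every fit without 1 tumour other than passage 2 control replicate 2 or current-only replicate 1. The adjusted p was highest, at 0.324, without passage 2 control replicate 1, where the difference was -0.68. In the same comparison 0 of 9 macrophage markers had a difference above 0, with a median of -0.58. The same held for 0 of 9 T and NK cell markers, with a median of -0.61, and for 2 of 5 neutrophil markers, with a median of -0.12. None of these markers was called, and their part in the Adam8 difference was not tested. Mmp12 had a difference of -0.59 ± 0.18 in the same comparison (adjusted p = 0.145, limma). It was called, at -0.72 and an adjusted p of 0.0251 by limma, only without current-only replicate 1. Mmp12 passed the filter only through the passage 2 control and current-only groups, the side without earlier RANK-Fc. Its difference here was thus partly fixed by the filter.

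**Figure D3:**
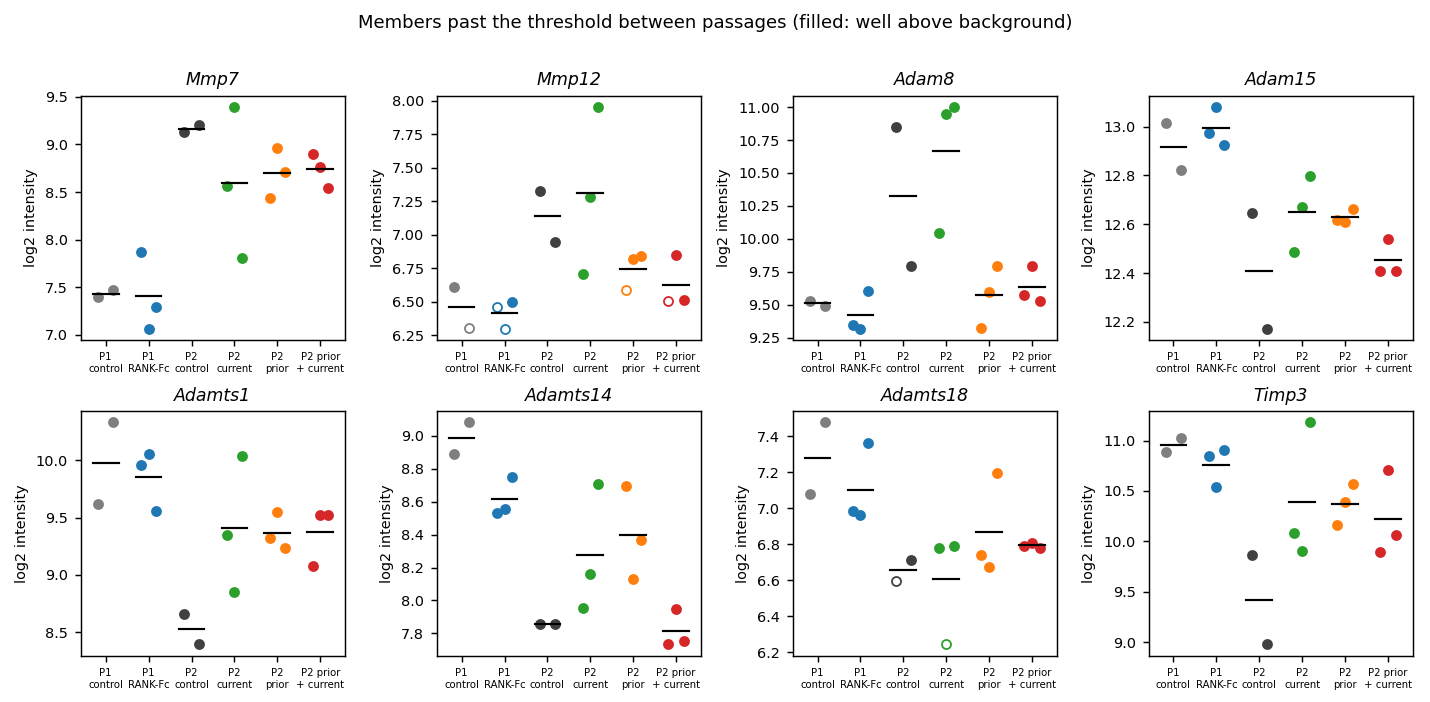
Log2 intensity of the 8 members called between passages, 1 panel per gene and 1 point per tumour in each of the 6 groups, with the group mean as a line and open points for tumours not well above background. Adam8 is highest in 4 of the 5 passage 2 tumours without earlier RANK-Fc, and the fifth, a control at 9.79, lies among the 6 with it. Mmp7 is higher in passage 2 than in passage 1 except in P2 current replicate 3 (7.81).

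The stromelysins Mmp3 and Mmp10 cut proteoglycans and laminin and activate other precursors, and Mmp13 is a collagenase that cuts fibrillar collagen. They lie in a row of 10 Mmp genes on chromosome 9 in RefSeq's mouse annotation, with other Mmp genes between them. In mouse genes of this row an AP-1 element close to the start is well known, and AP-1 is one of the factors that RANK signalling activates. The 120 bases before the start are shown for the members of the row whose levels moved together (Mmp3, Mmp10, Mmp13) and for Mmp7, whose levels did not move with them. Sequences are from RefSeq, build GRCm38.p6, plus strand, and capitals mark the AP-1 motif TGAGTCA, searched on both strands, so that the reverse strand reads TGACTCA.
Mmp3, chr9:7445702-7445821: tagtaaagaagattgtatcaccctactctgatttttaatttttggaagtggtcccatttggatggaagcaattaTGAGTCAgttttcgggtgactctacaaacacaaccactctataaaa
Mmp10, chr9:7502222-7502341: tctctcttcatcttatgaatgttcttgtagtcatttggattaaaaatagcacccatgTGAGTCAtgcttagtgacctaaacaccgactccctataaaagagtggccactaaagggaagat
Mmp13, chr9:7272394-7272513: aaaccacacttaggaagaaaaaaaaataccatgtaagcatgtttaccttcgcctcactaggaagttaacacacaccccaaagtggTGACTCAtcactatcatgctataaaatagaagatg
Mmp7, chr9:7691970-7692089: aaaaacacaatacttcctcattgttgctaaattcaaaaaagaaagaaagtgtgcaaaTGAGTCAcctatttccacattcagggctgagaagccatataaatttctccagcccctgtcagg

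The motif begins 46 bases before the start in Mmp3, 63 in Mmp10, 35 in Mmp13 and 63 in Mmp7. Over the 250 bases before a start it was found in 7 of the 10 genes of the row and in 9 of the 49 members with a promoter entry. That is 18.4% of the members, against 5.16% of all 27025 genes in the table. No Adamts or Timp promoter held it. All 4 promoters shown have the motif although Mmp7 had another pattern of levels, and a match of letters says nothing about binding.

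The group means of Mmp13 spanned 1.76, the same as those of Mmp7 and the widest of the members, but tumours of the same group differed widely too. It read 7.11 and 8.38 in passage 1 controls, 7.43, 8.57 and 7.07 in passage 1 RANK-Fc tumours, 7.69 and 6.80 in passage 2 controls and 7.02, 7.55 and 8.77 in current-only tumours. In prior-only tumours it read 9.95, 7.50 and 8.75, and in prior-and-current tumours 6.49, 7.73 and 6.70. Replicates 1 and 3 of the prior-only group were thus high, while replicate 2 lay within the range of the prior-and-current group. Mmp13 was well above background in 15 of the 16 tumours, the other being a prior-and-current tumour.

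Mmp3 and Mmp10 had the same high tumours. Mmp3 read 9.66, 7.42 and 8.90 in prior-only tumours and 7.37, 8.11 and 7.52 in prior-and-current tumours, with 7.12 to 8.48 in the other 10. Mmp10 read 8.09, 6.48 and 7.51 in prior-only tumours and 6.15, 6.92 and 6.22 in prior-and-current tumours, with 6.15 to 7.19 in the other 10. Mmp10 was well above background in all 3 prior-only tumours but in none of the passage 2 controls. It passed the filter only through the prior-only group, where it was high, so a difference of that group from the others was partly fixed by the filter. The fibroblast list read 11.54, 10.20 and 10.81 in the 3 prior-only tumours, with replicate 2 the lowest as for these genes, and its r over the 16 tumours was 0.67 with Mmp3, 0.62 with Mmp13 and 0.50 with Mmp10 (permutation p = 0.00451, 0.0106 and 0.0502, adjusted 0.0123, 0.0243 and 0.0936 over 41 members). The skeletal muscle list was highest in prior-only replicate 1 (9.45) but lowest in prior-only replicate 3 (6.82). The part of either list in these levels was not tested.

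Continued and stopped RANK-Fc were compared in tumours that had all been treated in passage 1. No member was called in prior-and-current against prior-only tumours, and no gene at all (0%), although 8 of 41 members had an unadjusted p under 0.05, against 10.1% of all genes. The difference was above 0 for 11 of 41 members, against 51% of all genes, and for 1 of 12 fibroblast markers, whose median was -0.49. It was above 0 for 0 of 9 macrophage and 0 of 4 skeletal muscle markers (medians -0.34 and -0.71). All 7 adipocyte markers were above 0, with a median of 1.1. The part of these lists in the members' differences was not tested. Stromelysin 3 (Mmp11), which is made by fibroblasts next to carcinoma cells, had the smallest p, with a difference of -0.79 ± 0.20 (adjusted p = 0.222, limma). It read 9.37, 8.44 and 8.95 in prior-only tumours and 8.17, 8.60 and 7.76 in prior-and-current tumours, so the groups overlapped. A second Mmp11 probe gave -0.63. The differences were -1.81 ± 0.59 for Mmp13, -1.03 ± 0.38 for Mmp3 and -0.98 ± 0.35 for Mmp10 (adjusted p = 0.304, 0.362 and 0.346, limma). Without prior-only replicate 1 they were -1.31, -0.64 and -0.69, and without prior-only replicate 2 they were -2.42, -1.55 and -1.43, with none called.

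**Figure D4:**
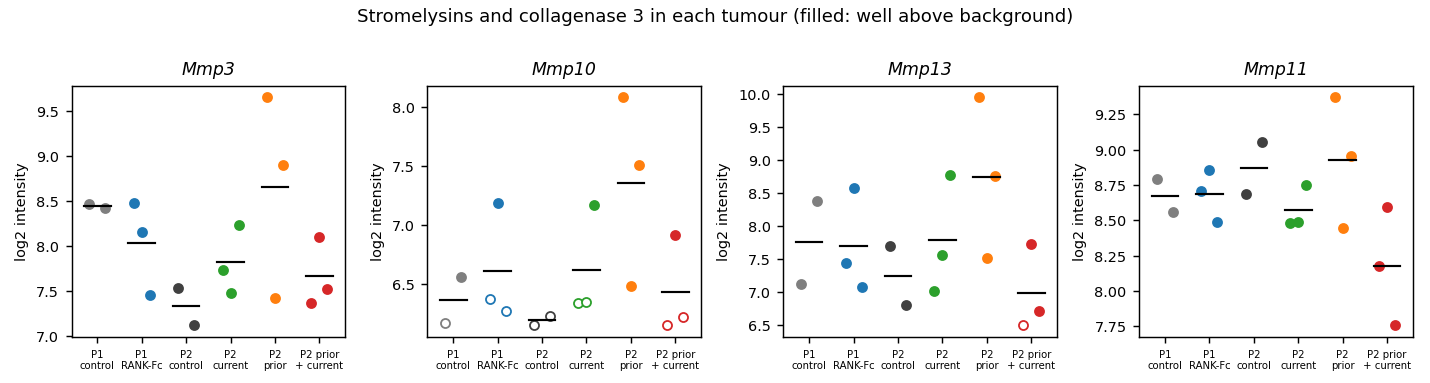
Log2 intensity of Mmp3, Mmp10, Mmp13 and Mmp11 in each tumour, by group, with the group mean as a line and open points for tumours not well above background. In the prior-only group, replicates 1 and 3 are high for Mmp3, Mmp10 and Mmp13 and replicate 2 is low.

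Over the 16 tumours, Mmp10 and Mmp13 had an r of 0.92 and a rho of 0.84 (permutation p = 1e-05 and 8e-05, adjusted 0.00051 and 0.0017 over 153 pairs). The r was 0.83 without the 2 farthest tumours and 0.94 within passage 2. Mmp10 was well above background in only 7 of the 16 tumours. It passed the filter only through the prior-only group, where both genes had their highest group mean. Their likeness, here and in the ranking below, was thus partly fixed by the filter. Mmp3 and Mmp13 had an r of 0.81 and a rho of 0.68 (permutation p = 0.00029 and 0.00468, adjusted 0.00222 and 0.017), and 0.58 without the 2 farthest tumours. By Pearson's r over 16 tumours, the 5 tested genes whose levels were most like those of Mmp13 were Mmp10 (0.919), Tnn (0.886), Mamdc2 (0.87), Avpr1a (0.869) and D630010B17Rik (0.868). For Mmp7 they were Hspb8 (0.952), Ano9 (0.925), Bspry (0.922), 4930431P03Rik (0.921) and Zdhhc14 (0.921). These genes were picked as the highest of all tested, and within passage 2 Avpr1a (0.961) and Mmp10 (0.937) were again among the 5 for Mmp13, while none of the 5 for Mmp7 was.

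The gelatinase Mmp2, which fibroblasts make and which cuts denatured collagen and basement membrane, was not called between passages in the fit on all tumours. It read 9.43 and 9.48 in passage 1 controls, 9.12, 9.40 and 8.81 in passage 1 RANK-Fc tumours, 7.97 and 7.77 in passage 2 controls and 8.34, 8.09 and 9.99 in current-only tumours. Only current-only replicate 3, the highest of all 16, broke the gap. The difference was -0.90 ± 0.33 (adjusted p = 0.101, limma), and -1.21 ± 0.22 (adjusted p = 0.00464) without that tumour. It read 9.37, 8.19 and 8.39 in prior-only and 8.26, 8.87 and 8.15 in prior-and-current tumours. The other gelatinase, Mmp9, was well above background in 3 tumours and was not tested.

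The membrane-type members act at the cell surface, where Mmp14 activates Mmp2 and cuts collagen. Mmp14 (MT1-MMP) read 8.32 and 8.53 in passage 1 controls and 7.76 and 7.54 in passage 2 controls. It read 8.12, 7.94 and 8.25 in passage 1 RANK-Fc tumours and 7.83, 8.18 and 8.82 in current-only tumours, so that the mean was lower in passage 2 among controls and higher among RANK-Fc tumours. Its passage difference was -0.27 ± 0.23 (adjusted p = 0.487, limma). For continued RANK-Fc, Mmp15 had the smallest p of the members with a difference above 0, 0.35 ± 0.14 (adjusted p = 0.421, limma). It read 9.50, 9.37 and 9.42 in prior-and-current and 8.87, 8.93 and 9.30 in prior-only tumours. Mmp17 differed by 0.22 ± 0.08 between passages (adjusted p = 0.114, limma). Mmp25 was well above background in 7 of 16 tumours and passed the filter only through the current-only group, so its differences lie near the detection limit and were partly fixed by the filter. It differed by 0.33 ± 0.12 between passages (adjusted p = 0.0954, limma) and by 0.35 ± 0.15 under continuous RANK-Fc (adjusted p = 0.224, limma), the second running from 0.15 to 1.23 over the alternatives.

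Among the other ADAM proteases, Adam15, which carries an integrin-binding motif, fell between passages. It read 13.01 and 12.82 in passage 1 controls, 12.97, 13.08 and 12.93 in passage 1 RANK-Fc tumours, 12.65 and 12.17 in passage 2 controls, and 12.49, 12.67 and 12.80 in current-only tumours. The 6 tumours with earlier RANK-Fc read 12.41 to 12.66. All 11 passage 2 tumours lay below all 5 passage 1 tumours. Adam15 was the only member with that gap (1 of 41, 2.44%), a share near the 1.96% of all genes. The Adam15 difference was -0.43 ± 0.09 (adjusted p = 0.00991, limma), and leaving out the second passage 2 control made it -0.33.

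The main sheddases did not pass the test between passages. Adam10, which sheds Notch receptors and cadherins, differed by -0.13 ± 0.09, and Adam17, which sheds tumour necrosis factor and epidermal growth factor receptor ligands, by 0.08 ± 0.10. Adam9 differed by -0.18 ± 0.13 and Adam12 by 0.05 ± 0.07. The adjusted p-values by limma were 0.367, 0.677, 0.391 and 0.699, so none of the 4 was called, and none was called in any other comparison. In the RANK-Fc comparisons the difference of these 4 genes furthest from 0 was -0.20, for Adam12 in prior-and-current tumours against passage 2 controls.

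The ADAMTS proteases called between passages were all lower in passage 2. Adamts1 cuts the proteoglycans versican and aggrecan. It read 9.62 and 10.33 in passage 1 controls, 9.96, 10.05 and 9.55 in passage 1 RANK-Fc tumours, 8.66 and 8.39 in passage 2 controls and 9.34, 8.85 and 10.03 in current-only tumours. The passage 2 controls were the lowest of all tumours, and current-only replicate 3 lay within the passage 1 range. The difference was -0.98 ± 0.19 (adjusted p = 0.00542, limma), and -1.47 ± 0.29 among controls alone (adjusted p = 0.0178, limma). The call among controls was lost without passage 1 control replicate 1, passage 1 control replicate 2 or passage 2 control replicate 2 (adjusted p = 0.0771, 0.131 and 0.291).

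Adamts1 also had the smallest unadjusted p of the higher members in each of the current-only and prior-only comparisons with the passage 2 controls. The differences were 0.78 ± 0.25, 0.82 ± 0.25 and, for prior-and-current tumours, 0.80 ± 0.26 (adjusted p = 1, 0.339 and 0.369, limma). These 3 comparisons share the same 2 control tumours, whose values were 8.66 and 8.39. The 9 passage 2 tumours with any RANK-Fc read 8.85 to 10.03, above both controls, but the share of all genes with such a gap was not counted. The change of the RANK-Fc effect between passages was 0.99 ± 0.35 (adjusted p = 1, limma).

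Adamts14 removes the amino-terminal propeptide of procollagen, as Adamts2 does. It read 8.89 and 9.08 in passage 1 controls, 8.53, 8.56 and 8.75 in passage 1 RANK-Fc tumours, 7.86 and 7.86 in passage 2 controls and 7.96, 8.16 and 8.71 in current-only tumours. In prior-only tumours it read 8.70, 8.13 and 8.37, and in prior-and-current tumours 7.73, 7.95 and 7.75. It fell by 0.71 on the log2 scale between passages (SE 0.15, adjusted p = 0.00791, limma) and by 0.86 under continuous RANK-Fc (SE 0.18, adjusted p = 0.0354). The second call was lost in 11 of 29 alternative fits. Among these were the fits without any 1 passage 1 RANK-Fc tumour, either passage 2 control, or prior-and-current replicate 1 or 3, with adjusted p from 0.0571 to 0.115. In prior-and-current against prior-only tumours its difference was -0.64 ± 0.17 (adjusted p = 0.247, limma). Adamts14 had the smallest p of the members in the test for any difference among the 6 groups (adjusted p = 0.0216, limma).

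Adamts2 read 11.13 and 11.15 in passage 1 controls and 10.19 and 10.07 in passage 2 controls. In current-only tumours it read 10.31, 10.40 and 11.77. Its difference was -0.66 ± 0.28 (adjusted p = 0.145, limma), and -0.91 ± 0.19 (adjusted p = 0.00916) without current-only replicate 3. Adamts18 fell by 0.51 (SE 0.14, adjusted p = 0.034, limma), but the call was lost in 7 of the 16 fits without 1 tumour. Those were the fits without either passage 1 control, without either passage 2 control, without passage 1 RANK-Fc replicate 1 or 3, or without current-only replicate 2, with adjusted p from 0.051 to 0.147. The aggrecanase Adamts4 had a passage difference of 0.51 ± 0.19 (adjusted p = 0.116, limma), and Adamts5 one of 0 ± 0.16. Adamts5 was not well above background in either passage 2 control.

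The other Adamts genes named by their rank gave smaller values. Adamts8 differed by 0.47 ± 0.26 for continued RANK-Fc (adjusted p = 0.586), Adamts10 by 0.33 ± 0.12 for earlier RANK-Fc (adjusted p = 0.23) and Adamts9 by 0.20 ± 0.13 for current RANK-Fc over its 3 backgrounds (adjusted p = 0.837, all limma). None was called.

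Of the 4 Timp genes, none had a difference above 0 between passages. Only Timp3, which binds to the matrix and blocks ADAM as well as Mmp enzymes, was called. It read 10.88 and 11.03 in passage 1 controls, 10.84, 10.54 and 10.91 in passage 1 RANK-Fc tumours, 9.87 and 8.98 in passage 2 controls and 10.08, 9.90 and 11.18 in current-only tumours. Current-only replicate 3 was the highest of all and passage 2 control replicate 2 the lowest. The difference was -0.96 ± 0.25 (adjusted p = 0.0234, limma). The call was lost without passage 1 control replicate 1 (0.0538), passage 1 control replicate 2 (0.0963), passage 1 RANK-Fc replicate 1 (0.0607), passage 2 control replicate 2 (0.132) or current-only replicate 1 (0.0566), the values being adjusted p by limma. Among controls alone it was -1.50 ± 0.37 (adjusted p = 0.0478, limma), called in 10 of 29 alternative fits. Of the fits without 1 tumour, only those without current-only replicate 2 or 3 or prior-and-current replicate 2 kept that call. Without passage 2 control replicate 2 it was -1.05 with an adjusted p of 0.533.

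Timp1, an inhibitor that activated fibroblasts secrete, read 11.03 and 10.63 in passage 1 controls, 9.85 and 9.63 in passage 2 controls and 10.56, 10.26 and 11.43 in current-only tumours. The current-only tumours differed from the passage 2 controls by 0.93 ± 0.31 (adjusted p = 1, limma). Without current-only replicate 3 that difference was 0.62. The passage difference was -0.55 ± 0.23 (adjusted p = 0.157, limma), and -0.74 ± 0.18 (adjusted p = 0.0212) without the same tumour.

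Timp2, which helps Mmp14 to activate Mmp2, had a passage difference of -0.74 ± 0.24 (adjusted p = 0.0662, limma). Its 5 passage 1 tumours read 14.11, 14.42, 14.63, 14.65 and 14.48, above the 5 passage 2 tumours without earlier RANK-Fc at 14.07, 13.15, 13.68, 13.41 and 13.87. Such a gap in that direction was found for 8.26% of all genes and for 3 members (7.32%), namely Timp2, Adam15 and Adamts18. Under continuous RANK-Fc the difference was -1.26 ± 0.30 (adjusted p = 0.0486, limma), called in 7 of 29 alternative fits. Of the fits without 1 tumour, those without current-only replicate 2, prior-only replicate 1 or 3, or prior-and-current replicate 2 kept the call, and the other 12 lost it, with adjusted p from 0.0513 to 0.213. A second Timp2 probe, above background in all 16 tumours, gave -0.17 between passages and -0.32 under continuous RANK-Fc, so the size depends on the probe. Timp4, which adipose tissue expresses, was above background in 6 of 16 tumours and differed by -0.22 ± 0.12 (adjusted p = 0.287, limma). Timp4 passed the filter only through the passage 1 controls, its highest group, so this difference was partly fixed by the filter.

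For passage among controls only, 4 of 41 members were called (Mmp7, Adamts1, Adamts14 and Timp3), against 3.33% of all genes, and 3 of the 4 were lower, against 2.38%. The count was 0 without passage 1 control replicate 1, passage 1 control replicate 2 or passage 2 control replicate 2. Leaving out passage 2 control replicate 1 gave 2 (Adam15 and Adamts1). For passage under continuous RANK-Fc, 4 were called (Mmp7, Adam15, Adamts14 and Timp2), against 2.64% of all genes. That count was 0 without any of the 3 passage 1 RANK-Fc tumours or without prior-and-current replicate 1 or 3. It was 2 without passage 1 control replicate 1 or 2 or current-only replicate 1, and 1 without passage 2 control replicate 1 or 2. In each of these comparisons 11 of 41 members had a difference above 0, against 46.5% of all genes among controls and 48.3% under continuous RANK-Fc.

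RANK-Fc itself gave no called member in any comparison of single groups. In passage 1, 0 of 41 members had an adjusted p under 0.05 (0% of all genes) and 0 an unadjusted p under 0.05, against 1.65% of all genes. Adamts14 had the smallest p there, with -0.35 ± 0.19, followed by Adam32 with -0.16 ± 0.11, Timp2 with 0.38 ± 0.32 and Mmp17 with 0.09 ± 0.11 (adjusted p = 1 for each, limma). Adam32 was well above background in 7 tumours and passed the filter only through the passage 1 controls, so its difference was partly fixed by the filter. In current-only tumours against passage 2 controls no member and no gene (0%) was called, 6 members had an unadjusted p under 0.05 against 4.03% of genes, and 33 of 41 differences were above 0 against 55%. All 12 fibroblast markers were above 0 in that comparison, with a median of 0.72. So were all 9 macrophage, 9 T and NK cell and 8 endothelium markers (medians 0.44, 0.11 and 0.11). The same held for all 8 basal and 4 squamous epithelial markers (medians 0.43 and 0.31). It held for 6 of 7 adipocyte, 3 of 4 skeletal muscle, 3 of 5 neutrophil and 6 of 10 luminal epithelial markers. The part of these lists in the members' differences was not tested. Without current-only replicate 3, 28 of 41 differences were above 0 and 3 members had an unadjusted p under 0.05.

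In prior-only tumours against passage 2 controls no member was called (0.00708% of all genes), with 8 at an unadjusted p under 0.05 against 7.69%. In prior-and-current tumours none was called (0.0778% of all genes), with 4 at an unadjusted p under 0.05 against 9.11%. Of all genes, 0.0708% were called higher there. The difference was above 0 for 18 of 41 members, against 49.9% of all genes. Mmp11 had the smallest p there, -0.80 ± 0.23 (adjusted p = 0.278, limma), and Adam8 followed Adamts1 with -0.75 ± 0.28 (adjusted p = 0.435, limma). Over the mean of the 3 backgrounds, current RANK-Fc gave 0 called members and 0% of all genes, with 1 member, Mmp11, at an unadjusted p under 0.05 against 6.83%. Its difference was -0.39 ± 0.13 (adjusted p = 0.66, limma). The difference was above 0 for 22 of 41 members, against 51.9% of all genes. The test of whether the RANK-Fc effect differed between passages gave 0 members and 0% of genes, with 3 members at an unadjusted p under 0.05 (Adamts1, Adamts14 and Timp3) against 1.8%.

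In the test for any difference among the 6 groups, 4 of 41 members were called (Adamts14, Mmp7, Adam8 and Adam15), against 4.85% of all genes. The next 4 by p were Adamts1, Timp2, Adamts4 and Timp3, with adjusted p of 0.0614, 0.124, 0.129 and 0.133 by limma. The count was 0 without passage 1 control replicate 1 or 2, passage 1 RANK-Fc replicate 1 or prior-and-current replicate 1, and 1 without passage 1 RANK-Fc replicate 2 or 3 or passage 2 control replicate 2. It was 2 without prior-only replicate 2. The median range of group means was 0.64 over the members and 0.34 over all genes tested.

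Many members followed the fibroblast list. Over 16 tumours the correlation with the mean fibroblast level was above 0 for 33 of 41 members, against 50.6% of all genes tested. It was 0.7 or more for 13 of 41, against 3.34% of all genes, and the median r was 0.50 over the members and 0.01 over all genes. These shares are a description. Adamts2 had the highest, with an r of 0.95 and a rho of 0.89 (permutation p = 1e-05 for both, adjusted 0.00014 and 0.00041 over 41 members). The r was 0.94 without the 2 tumours farthest from the median and 0.97 within passage 2. Mmp2 had an r of 0.93 and a rho of 0.85, and Mmp23 an r of 0.92 and a rho of 0.91 (permutation p of r = 1e-05 for both, adjusted 0.00014), with r of 0.90 and 0.89 without the 2 farthest tumours. Mmp7 had the lowest r of the members, -0.77, with a rho of -0.84 (permutation p = 0.00061 and 8e-05, adjusted 0.00313 and 0.00082), and -0.86 within passage 2. Adam8 had an r of -0.03, which was -0.50 without the 2 farthest tumours and 0.28 within passage 2.

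**Figure D5:**
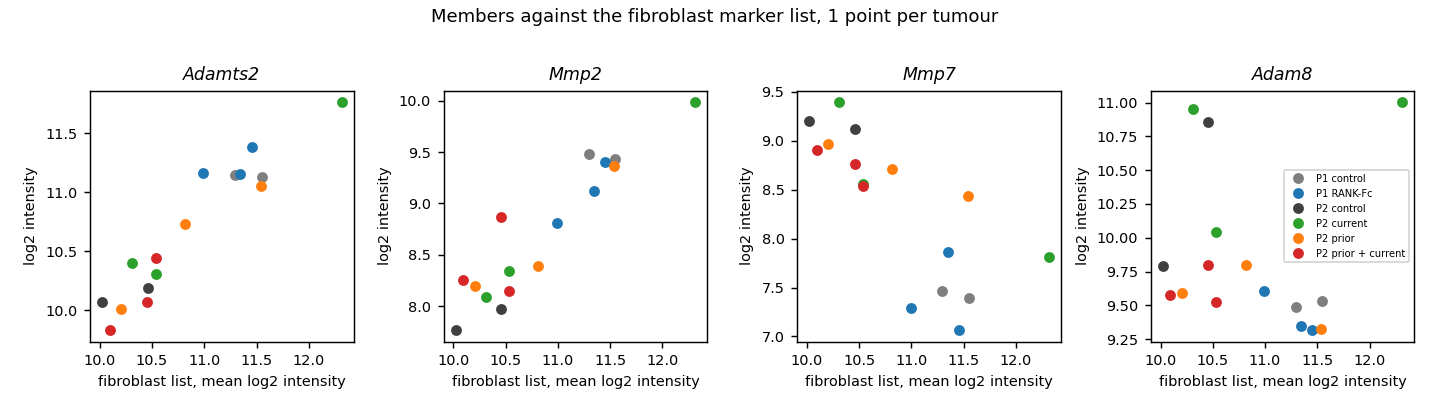
Log2 intensity of Adamts2, Mmp2, Mmp7 and Adam8 (vertical axes) against the mean log2 intensity of 12 fibroblast markers (horizontal axes), 1 point per tumour, coloured by group. Adamts2 and Mmp2 rise with the fibroblast list (r = 0.95 and 0.93), Mmp7 falls (r = -0.77), and Adam8 shows no line (r = -0.03).

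Partners and regulators of these proteases were followed in a list of 32 genes, of which 27 were tested. Between passages 7 of the 27 were called, 2 higher and 5 lower, against 12% of all genes (4.27% higher and 7.73% lower). Tspan33, a tetraspanin that steers Adam10, rose by 0.87 ± 0.11 (adjusted p = 0.000474). Papln, an ADAMTS-like matrix protein, fell by 1.74 (SE 0.19, adjusted p = 0.000225), and Adamtsl2 fell by 0.69 (SE 0.12, adjusted p = 0.00315). Rhbdf1 and Rhbdf2, the iRhom proteins that carry Adam17 to the surface, fell by 0.50 and 0.46 (adjusted p = 0.0376 and 0.0107), and the cystatin Cst3 fell by 0.59 (adjusted p = 0.0328). These p-values are from limma, adjusted over all genes.

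Known substrates were a list of 25 genes, of which 23 were tested. Between passages 3 of the 23 were called, a share near the 12% of all genes, so the count says nothing particular to substrates. All 3 were lower: the chemokine Cx3cl1, shed by Adam10 and Adam17, with -0.57 ± 0.12, the proteoglycan Sdc4 with -0.52 ± 0.12 and Egfr, the receptor of shed ligands, with -0.79 ± 0.20 (adjusted p = 0.00832, 0.0134 and 0.0216, limma). Cx3cl1 also fell under continuous RANK-Fc, by 1.12 on the log2 scale (SE 0.15, adjusted p = 0.00789, limma). No partner and no substrate was called in a RANK-Fc comparison. The median difference between passages was -0.17 over the partners and -0.14 over the substrates, against 0 over all genes.

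The members that were not tested were mostly those known from other tissues. Of 79 members, 62 were well above background in at least 1 tumour and 28 in all 16. Of the 38 not tested, 17 were above background in no tumour, among them Mmp1a, Mmp1b, Mmp20, Mmp28 and Adamts13. The other 21 were above background in 1 to 9 tumours but not in every tumour of any group, which the filter asked for, among them the neutrophil collagenase Mmp8 (2 tumours), Mmp9 (3), Mmp19 (2), Adamts12 (3) and Adamts16 (5). Of a list of 25 Adam genes known from testis and epididymis, 3 were tested, and none was called. A member that passed only through the group where it was high was chosen partly by its level there, so the counts above describe the tested members only. Of the 41, 28 passed through all 6 groups and 5 through 1 group alone: Adam32 and Timp4 through the passage 1 controls, Adam5 and Mmp25 through the current-only tumours, and Mmp10 through the prior-only tumours.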

How the data were processed

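Each array file holds scanner output: median spot and local background intensity in green and red, and a log10 ratio, as deposited by the authors, and the submitters' processing notes name Agilent Feature Extraction, version 10.7.3.1. Per the file headers the array design is named mm9, and flags mark outlier, saturated and well-above-background spots. The log10 ratio in the deposited files served only to check the colours (r of 0.848 to 0.933 with red over green). A series-wide table of 8 columns matched no label and was not used.

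Intensities were background-corrected by normexp (offset 50), normalised by loess within and Aquantile between arrays, and split into 16 channels on the log2 scale in R 4.3.3 with limma 3.58.1 and statmod 1.5.0. A probe was kept if all tumours of some group had it well above background, and the brightest passing probe stood for a gene. Missing values numbered 28 over all genes and 0 over the members. The fit had 6 group means, a dye term and the array as a block (correlation 0.228), with Benjamini-Hochberg adjustment over 14131 genes. Correlations used 100000 permutations in SciPy 1.17.1. The fit was tested on simulated data.

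Members and lists were chosen with earlier results of these data known. Named genes were every member called, the 2 members with the smallest p on either side of each comparison, the 8 smallest in the test over 6 groups, the 10 widest ranges of group means, and a set of 19 well-known members. Others are named where a count or a left-out tumour turned on them, after their values were seen. One gene of the partner list is counted but not reported here by name. Alternatives were other background corrections, normalisations, filters, probe choices and variance models, only the groups compared, and leaving out each tumour. The number of arrays limits the precision.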

Additional observations from a re-analysis of the deposited data

How the results depend on the processing

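No paired analysis was possible because the replicate numbers only name tumours within a group. Leaving out 1 tumour gave 4 to 13 members called between passages, 0 to 6 among controls, 0 to 4 under continuous RANK-Fc, 0 to 2 for earlier RANK-Fc, 0 to 6 in the test over 6 groups and 0 to 0 in the other 7 comparisons. Where that left 1 tumour in a group, it was assumed to vary like the other groups. For earlier RANK-Fc the count of 1 became 0 with Feature Extraction processed signals, median centring, no filter, no dye term, no array block or only the groups compared. Under continuous RANK-Fc the count of 4 became 1 with no background subtraction, 0 with median centring, and 2 with Feature Extraction processed signals, no filter, no array block or only the groups compared; over all genes the 373 called became 187, 75, 241, 271, 316 and 133 in the order no background subtraction, median centring, processed signals, no filter, no block and only the groups compared. In the test over 6 groups the 4 became 2 without the dye term. Counting members well above background in at least 1 tumour gave 62 in place of 41. Of single genes, the difference of Mmp11 in current-only tumours against passage 2 controls, -0.37 and not called, became 0.01 when passage 2 control replicate 2 was left out, and -0.65 when replicate 1 was. Adamts18 between passages was not called with processed signals (-1.08, adjusted p = 0.0817, limma), and Mmp12 and Timp3 not with only the groups compared (0.0526 and 0.0623). The causes were not tested. Of the alternative values for single genes, 128 lost the threshold, 1 passed it anew and 1 reversed, while 1310 kept direction and side. Signal over background limits the members that were not well above background in at least 1 tumour. These were Mmp10, Mmp12, Mmp13, Mmp25, Adam5, Adam6b, Adam12, Adam23, Adam32, Adamts5, Adamts17, Adamts18 and Timp4.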
